A study of Mus musculus with 16 samples.

Results

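The urea cycle and glutamine genes of the liver lobule were followed in mouse offspring whose dams had inhaled UV-Titan, a nano-sized titanium dioxide, during pregnancy. The 10 genes were chosen by name as Cps1, Otc, Ass1, Asl, Arg1, Nags, Slc25a15, Gls2, Glul and Rhbg, and all 10 were among the 19361 genes tested. The array files list 15 probes for them, and each gene is represented by its brightest probe in liver. Every animal was a C57BL/6BomTac mouse from a time-mated dam. Between gestation days 8 and 18 the dams spent 1 hour daily in whole-body exposure, either to about 42 mg/m3 UV-Titan or to filtered clean air as control. There were 5 arrays of female UV-Titan offspring, 3 of female control offspring, 4 of male UV-Titan offspring and 4 of male control offspring, with 1 liver on each of the 16 arrays. The labels leave unsaid whether a liver was taken from a newborn on postnatal day 2 or at weaning on postnatal days 23 to 24, and which animals shared a litter, so p-values measure only the spread between these animals.

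The urea cycle turns ammonia into urea, and its enzymes are made mainly by hepatocytes around the portal vein. There Gls2, the liver form of glutaminase, also releases ammonia from glutamine. A thin rim of hepatocytes around the central vein makes Glul, glutamine synthetase, which captures the ammonia that escapes the cycle, and Rhbg, a membrane channel for ammonia. This division of labour between the ends of the lobule is a textbook case of liver zonation.

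Each array compared liver RNA with a universal mouse reference RNA, a commercial pool bought as total RNA. The label fields and the labelling protocol name opposite dyes, and the signals settled the direction. The median log2 ratio of red over green of 11 measured hepatocyte markers was 4.80 at its lowest array and 6.17 at its highest. Red is therefore taken as the liver channel and green as that of the reference. The ratio of Xist, expressed from the inactive X chromosome, was -5.69 ± 0.40 log2 in males and 1.88 ± 0.13 log2 in females (SD, n = 8 each), with no overlap between the labelled sexes. Values are given on 2 scales, the log2 ratio of red over green after loess normalisation within each array, and the log2 red signal alone after quantile normalisation between arrays. Per array, 57.7% to 67.1% of red spots passed as well above background, and 0 spots were saturated. The lowest share was that of female control 35. Female controls 35 and 25 also had the lowest array weights, 0.42 and 0.59, against 0.72 or more elsewhere. The lowest r between arrays of a group was 0.969, in female controls. Every difference in females rests on these 3 control arrays. Some arrays carried transcripts of other organs. The mean of 11 measured exocrine pancreas markers, as log2 ratio relative to the average of all arrays, was 2.79 on male control 31 and 1.69 on male control 33, against -0.48 to -0.18 on the other 14 arrays. The same measure for 9 skeletal muscle markers was 2.45 on male UV-Titan 5, against -0.39 to 0.40 elsewhere, and for 5 small intestine markers 0.84 on male control 31, against -0.25 to 0.17 elsewhere. Values in males are therefore also given without these arrays where it matters.

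Otc was read by 3 probes and Glul by 2, and these probes gave different values in males. The start of these probes and of the probes for Cps1 and Arg1 is shown as listed in the array files, with positions of the whole 60-base probe in build mm7. Among the urea cycle enzymes, Cps1 and Arg1 had the largest differences in females on the ratio scale, though Cps1 differed by only 0.015 log2 on red alone. The first 30 bases are printed 5′ to 3′ in lower case, with no base marked.
Cps1 (A_51_P455090, chr1:67470600-67470659, plus strand): tttctttgatagatccttgcttcaggtttt
Arg1 (A_51_P303160, chr10:24669046-24669105, minus strand): aactctgggaattaagtatttctccatgac
Otc, the probe that stood for the gene (A_52_P286360, chrX:8753291-8753350, plus strand): taaacactctcttcaatttacaacctctga
Otc, a second probe (A_51_P126563, chrX:8709867-8733514, plus strand): acaccgctcgtgtcttatctagcatgacag
Glul, the probe that stood for the gene (A_52_P101279, chr1:153870358-153870417, plus strand): gtaactgccaggcagcgcttataaatcaac
Glul, a second probe (A_51_P441798, chr1:153869393-153869452, plus strand): gctggtttcccctttagaaataacagctct
The second Otc probe is listed over a span of 23648 bases, so its bases come from separate stretches of the gene, while the probe that stood for Otc lies in 1 stretch of 60 bases further along the gene. The 2 Otc probes shown share no run longer than 6 bases and the 2 Glul probes none longer than 5. Of the other genes, Ass1 was read at chr2:31527690-31527748, Asl at chr5:129249917-129250502 (a span of 586 bases), Nags at chr11:102258443-102258501, Slc25a15 at chr8:21160309-21160368, Gls2 at chr10:127711271-127711330 and Rhbg at chr3:88357144-88357203. No annotation of build mm7 was used here, so exon and UTR positions are not given.

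Most of the 10 genes were bright in liver, but Slc25a15 and Rhbg were dim, with mean raw red signals of 349 and 886. The others had 4650 (Otc) to 25657 (Glul). The liver signal of all 10 was well above background on 16 of 16 arrays, and the reference signal on 16 of 16 arrays for all but Otc, whose reference signal passed on 10. The mean log2 ratio of Cps1, the enzyme that makes carbamoyl phosphate and opens the cycle, was 7.17 ± 0.26 (SD over 16 arrays). It was 5.47 ± 0.25 for Otc, which makes citrulline in the mitochondrion, 5.35 ± 0.25 for Nags, which makes the activator of Cps1, and 5.28 ± 0.29 for Arg1, the arginase that releases urea. For the cytosolic enzymes Ass1 and Asl, which build and split argininosuccinate, it was 1.79 ± 0.27 and 2.44 ± 0.20. Slc25a15, the mitochondrial carrier of ornithine, had 1.53 ± 0.18, Gls2 3.58 ± 0.28, Glul 3.97 ± 0.21 and Rhbg 2.88 ± 0.32. These ratios also depend on how much of each transcript the reference pool holds, so they are not an order of liver levels. On the ratio scale Rhbg had the largest SD over the arrays and Slc25a15, the dimmest of the 10 in liver, the smallest.

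A gene was called where its limma p, adjusted over all 19361 genes, was under 0.05. In females, 0 of the 10 genes were called after maternal UV-Titan on either scale, and neither was any other gene, with 0% of 19361 genes called. For the ratio 9 of the 10 genes had a higher mean in UV-Titan females than in control females, where 58.5% of all genes did. The median difference of the 10 genes was 0.21 log2, against 0.021 over all genes. At an unadjusted p under 0.05 there were 3 of the 10 genes, Arg1, Glul and Cps1, all higher, beside 6.68% of all genes. Of those genes 1047 were higher and 247 lower. On red alone 4 of the 10 genes were higher, beside 49.7% of all genes, the median difference was -0.023 log2, and no member but 3.11% of all genes had an unadjusted p under 0.05. Quantile normalisation fixes the centre of the red scale. With the arrays centred on their median instead, the median of all genes differed by 0.15 log2 in females, and 10 of 10 members were higher with 0 called. That direction came from 1 array, since with female control 25 left out 2 of 10 members were higher and the median of all genes differed by -0.028 log2, a setting chosen after seeing the data.

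On the ratio scale Arg1 had the largest difference of the 10 genes in females, while on red alone Gls2 did. Its log2 ratio was 5.48 (replicate 2), 5.82 (8), 5.47 (10), 5.10 (16) and 5.24 (21) in UV-Titan females, against 4.76 (25), 5.06 (35) and 5.08 (40) in control females. All 5 UV-Titan values lay above all 3 control values, by a narrow margin between UV-Titan replicate 16 and control replicate 40, and Arg1 was the only member whose groups did not overlap, which 3.17% of all genes did in this direction. The difference was 0.45 ± 0.17 log2 (SE, 95% interval 0.09 to 0.82, limma, adjusted p = 0.694). In the 3 slides with 1 array of each female group it was 0.42, 0.39 and 0.34 log2. On red alone Arg1 was 13.52, 13.52, 13.62, 13.08 and 13.38 in the same UV-Titan females and 13.08, 13.12 and 13.49 in control females. These red values overlap, and the difference was 0.19 ± 0.26 log2 (limma, adjusted p = 1.00), with 0.41, 0.13 and -0.0036 log2 within the slides.

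Cps1 had log2 ratios of 7.17, 7.53, 7.41, 7.03 and 7.07 in UV-Titan females (replicates 2, 8, 10, 16 and 21), against 6.86, 7.07 and 6.74 in control females (25, 35 and 40). UV-Titan replicate 16 lay within the range of the controls, and replicate 21 was level with the highest control to the digits given. The difference was 0.35 ± 0.16 log2 on the ratio scale (SE, limma, adjusted p = 0.718) and 0.015 ± 0.18 log2 on red alone (adjusted p = 1.00). Within the slides the ratio difference was 0.10, 0.67 and 0.17 log2.

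Glul, at the other end of the lobule, showed the same contrast between the scales. Its log2 ratio was 4.21, 4.30, 4.29, 3.76 and 4.07 in UV-Titan females, against 3.74, 3.65 and 3.98 in control females, in the same order of replicates. UV-Titan replicate 16 lay among the controls and the other 4 lay above them. The difference was 0.33 ± 0.13 log2 (SE, limma, adjusted p = 0.694), while on red alone it was -0.035 ± 0.12 log2 (adjusted p = 1.00). Within the slides the ratio difference was 0.56, 0.31 and 0.015 log2. The second Glul probe differed by 0.20 ± 0.11 log2 on the ratio scale and 0.050 ± 0.14 log2 on red alone.

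The reference channel of these spots also had lower means on UV-Titan than on control female arrays. The log2 green signal on UV-Titan minus control female arrays was -0.32 ± 0.15 at Cps1, -0.32 ± 0.15 at Glul, -0.25 ± 0.08 at Nags, -0.25 ± 0.14 at Otc and -0.20 ± 0.21 at Arg1 (SE). None was called (limma, adjusted p = 1.00 for each). Of the hepatocyte markers 11 of 11 had a higher ratio in UV-Titan females, with a median of 0.63 log2, and 8 of 11 were higher on red alone, with a median of 0.10 log2. For the ratio 9 of the 11 had an unadjusted p under 0.05 (limma), beside 6.68% of all genes. Per array, the mean log2 ratio of the hepatocyte markers relative to the average of all arrays was -0.44 to 0.59 in UV-Titan females. In control females it was -0.64 to -0.40. The part of the reference channel in the ratios of the 10 genes was not tested.

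The remaining members differed less in females for the ratio. There Nags differed by 0.25 ± 0.17, Gls2 by 0.24 ± 0.19, Otc by 0.17 ± 0.17, Ass1 by 0.17 ± 0.19, Asl by 0.16 ± 0.14, Rhbg by 0.10 ± 0.23 and Slc25a15 by -0.047 ± 0.12 log2 (SE). Of these, Gls2 had a difference of similar size on red alone, at 0.26 ± 0.20 log2, against 0.19 ± 0.26 for Arg1, and its reference signal differed by 0.044 ± 0.060 log2. The 95% intervals of these 7 genes for the ratio lay within -0.38 to 0.64 log2.

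**Figure D1:**
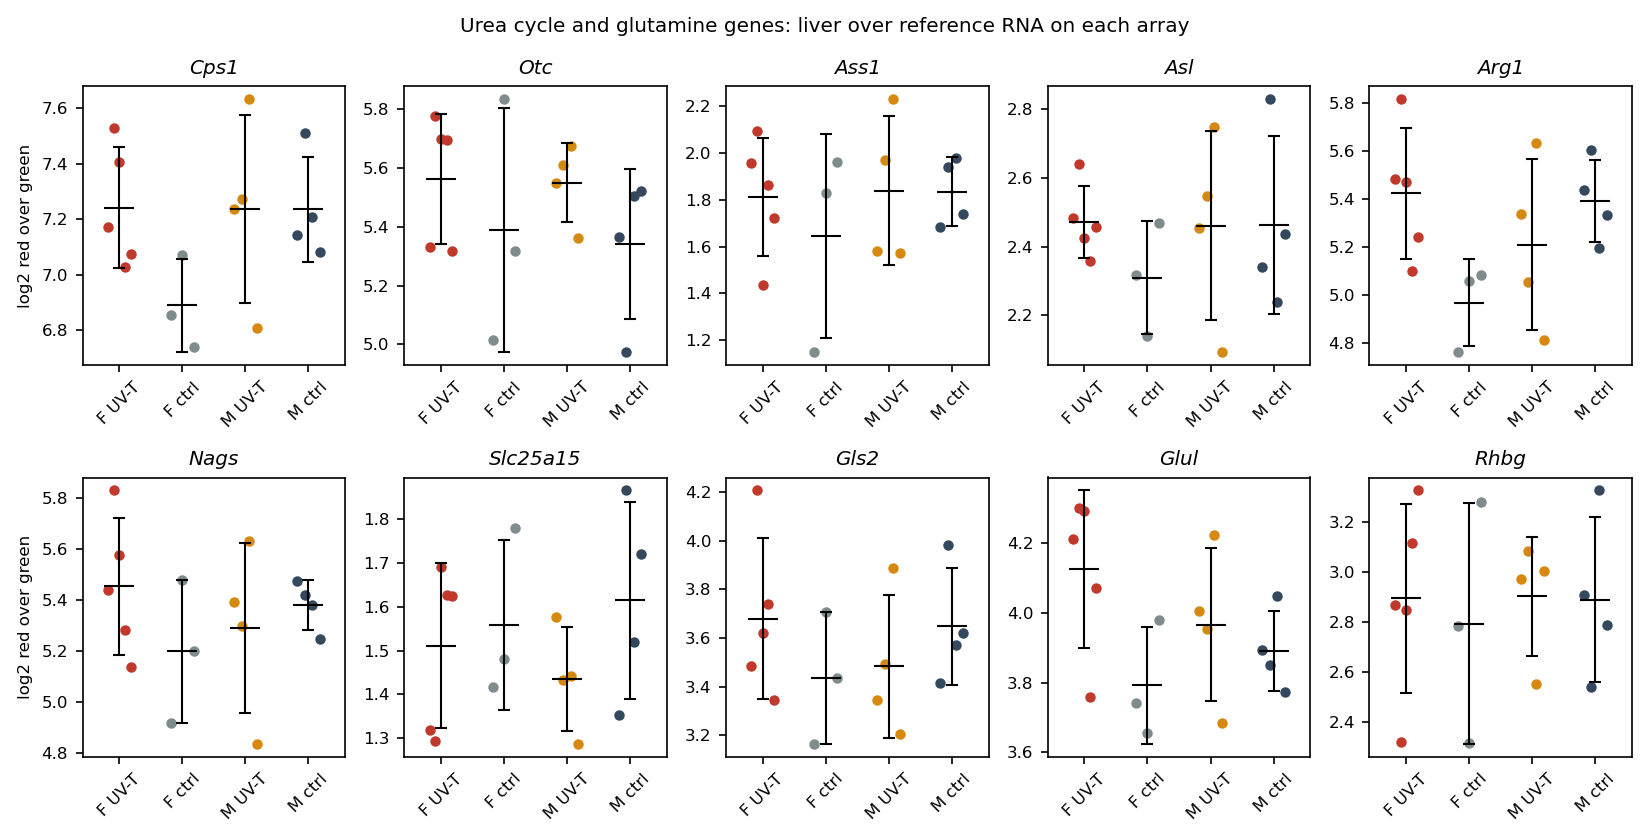
Log2 ratio of liver over reference RNA for the 10 genes on each array, in female UV-Titan, female control, male UV-Titan and male control offspring from left to right. Points are arrays, bars are the mean and SD of a group. The 5 female UV-Titan points of Arg1 lie above the 3 female control points, and the groups of the other 9 genes overlap.

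**Figure D2:**
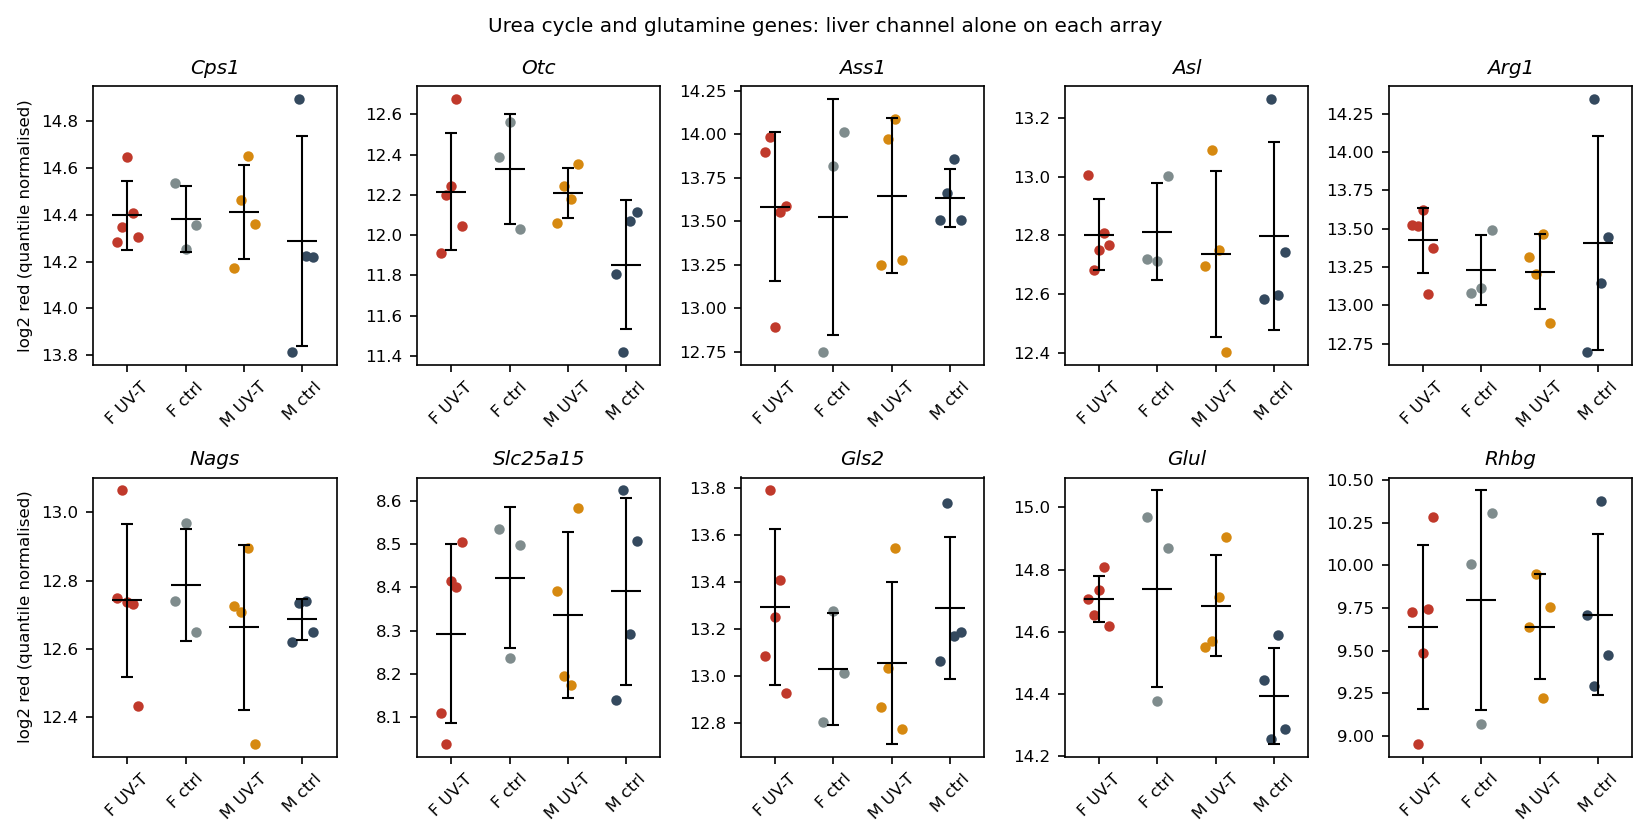
Log2 liver signal alone for the same genes, arrays and group order. On this scale the female groups of all 10 genes overlap, and male control 33 carries both the highest Arg1 point (14.35) and the lowest Otc point (11.42).

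In males, 0 of the 10 genes and 0% of all genes were called on either scale (limma). The ratio was higher in UV-Titan than in control males for 5 of the 10 genes, where 56.7% of all genes were higher, and the median difference was 0.00013 log2. Of the 11 hepatocyte markers 1 was higher in UV-Titan males on the ratio scale, with a median of -0.23 log2, and 8 were higher on red alone, with a median of 0.032 log2. On red alone 4 of the 10 were higher, beside 51.3% of all genes, and their median was -0.039 log2. No member had an unadjusted p under 0.05 on the ratio scale, beside 4.94% of all genes, while 1 of the 10 did on red alone, Glul, beside 3.2%.

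Glul had a log2 red signal of 14.55 (replicate 3), 14.57 (4), 14.71 (5) and 14.90 (17) in UV-Titan males, against 14.44 (31), 14.26 (33), 14.59 (41) and 14.29 (43) in control males. Control replicate 41 lay within the UV-Titan range and the other 3 controls below it. The difference was 0.29 ± 0.12 log2 (SE, 95% interval 0.03 to 0.55, limma, adjusted p = 0.999), and 0.075 ± 0.13 log2 on the ratio scale (adjusted p = 0.973). In the 3 slides with 1 array of each male group it was -0.018, 0.27 and 0.26 log2 on red alone. The second Glul probe had -0.095 ± 0.13 log2 on red alone and -0.036 ± 0.11 log2 on the ratio scale, both smaller than their SE. It was much dimmer in liver, with a mean raw red signal of 678 against 25657.

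Otc had a log2 red signal of 12.06, 12.24, 12.18 and 12.35 in UV-Titan males (replicates 3, 4, 5 and 17), against 11.81, 11.42, 12.07 and 12.12 in control males (31, 33, 41 and 43). The 2 controls with pancreas transcripts were the 2 lowest arrays of the male groups. The difference was 0.36 ± 0.17 log2 on red alone (SE, limma, adjusted p = 0.999) and 0.21 ± 0.16 log2 on the ratio scale (adjusted p = 0.962). Without control replicates 31 and 33 it was 0.12 log2 on red alone and 0.036 log2 on the ratio scale, and without replicate 33 only it was 0.21 log2 on red alone. The second Otc probe differed by -0.0045 ± 0.16 log2 on red alone and by -0.021 ± 0.14 log2 on the ratio scale. The remaining Otc probe (A_52_P369776, chrX:8749268-8749327) went with the first, at 0.13 ± 0.089 log2 on red alone in males and -0.15 ± 0.091 in females. Its reference signal was well above background on 0 of 16 arrays, so no ratio is given for it.

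Arg1 did not differ beyond its spread in males. Its log2 red signal was 13.32, 13.20, 13.47 and 12.89 in UV-Titan males, against 12.69, 14.35, 13.14 and 13.44 in control males, in the same order of replicates. Control replicates 31 and 33 were the lowest and the highest of all 16 arrays. They were also lowest and highest in the reference channel, at 6.81 and 8.23 log2, so their ratios lay within the range of the other arrays. The difference was -0.19 ± 0.25 log2 on red alone and -0.18 ± 0.17 log2 on the ratio scale (SE, limma, adjusted p = 0.999 and 0.962), and the red value was 0.12 log2 without control replicate 33. Gls2 differed by -0.23 ± 0.20 log2 on red alone and -0.16 ± 0.18 log2 on the ratio scale. Slc25a15 differed by -0.18 ± 0.12 and Nags by -0.090 ± 0.16 log2 on the ratio scale. The ratio differences of Cps1, Ass1, Asl and Rhbg in males lay between -0.0012 and 0.013 log2, with 95% intervals within -0.46 to 0.48.

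**Figure D3:**
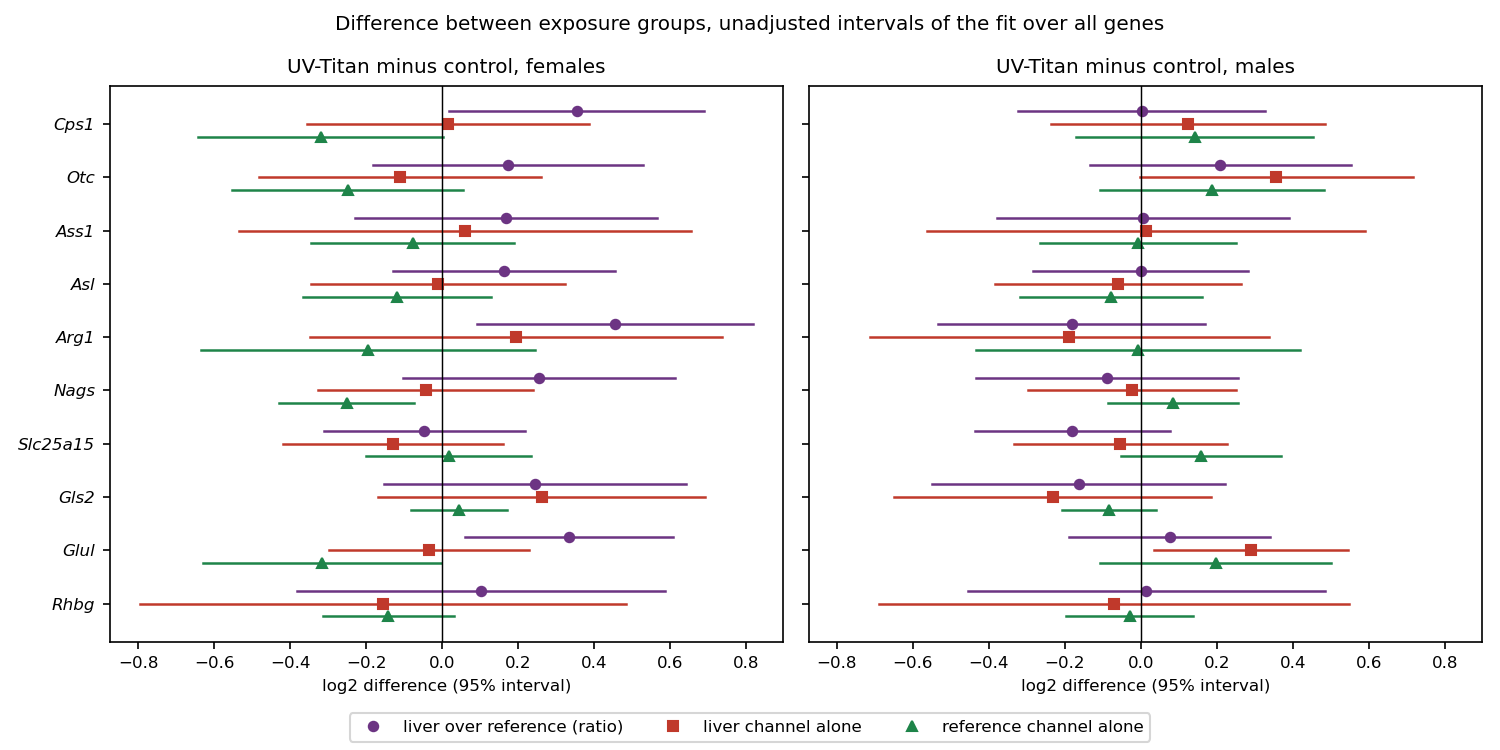
Difference of UV-Titan minus control in log2 units with its unadjusted 95% interval for the 10 genes, in females on the left and males on the right, for the ratio (circles), the liver channel (squares) and the reference channel (triangles). In females the ratio intervals of Cps1, Arg1 and Glul lie above 0 while their liver-channel intervals cover 0 (0.015, 0.19 and -0.035 log2), and in males the liver-channel interval of Glul lies above 0.

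The effects in females and males were compared directly. The female minus male effect was called for 0 of the 10 genes and 0% of all genes on both scales (limma). Arg1 had the largest such value on the ratio scale, 0.64 ± 0.24 log2 (SE, limma, adjusted p = 0.980), from group means of 5.42 ± 0.27 in UV-Titan and 4.97 ± 0.18 in control females, and 5.21 ± 0.36 in UV-Titan and 5.39 ± 0.17 in control males (SD). It was the single member with an unadjusted p under 0.05, beside 4.26% of all genes, and no member but 2.83% of all genes reached that on red alone. The Arg1 value was 0.51 log2 without the 2 arrays with pancreas transcripts, 0.78 without the array with muscle transcripts, and 0.38 ± 0.36 on red alone. Averaged over the sexes, UV-Titan against control called 0 of the 10 genes and 0% of all genes. Glul, at 0.20 ± 0.09 log2 on the ratio scale (SE, limma, adjusted p = 0.679), was the single member with an unadjusted p under 0.05, beside 7.06% of all genes, and on red alone no member reached it, beside 2.96%.

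Males and females differed at 9 genes on the ratio scale (0.0465% of all genes) and at 7 on red alone (0.0362%), none of them a member (limma). No member reached an unadjusted p under 0.05 on either scale, beside 4.3% of all genes on the ratio scale and 2.2% on red alone. The largest differences among members were on red alone, with males minus females at -0.24 ± 0.12 log2 for Otc and -0.18 ± 0.087 log2 for Glul (SE, adjusted p = 1.00 for both). For the ratio the differences of the same genes were -0.031 ± 0.12 and -0.030 ± 0.090 log2.

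The ends of the lobule were set against each other as the mean log2 value of the 7 urea cycle genes minus the mean of Glul and Rhbg. Its size has no meaning, because different probes cannot be compared in level, but its change between arrays does. For the ratio it was 0.70 ± 0.27 in UV-Titan and 0.70 ± 0.38 in control females (SD, n = 5 and 3), and 0.71 ± 0.24 in UV-Titan and 0.79 ± 0.27 in control males (SD, n = 4 each). On red alone it was 0.32 ± 0.28 in UV-Titan and 0.23 ± 0.49 in control females, and 0.30 ± 0.27 in UV-Titan and 0.38 ± 0.46 in control males. The groups overlapped on both scales, and the exposure differences were smaller than 1 SD of any group. Single arrays ranged from 0.38 on female UV-Titan 21 to 1.14 on female control 35 on the ratio scale, and from -0.10 on female control 25 to 0.93 on male control 33 on red alone. The pancreas arrays, male controls 31 and 33, had 0.71 and 1.11 for the ratio and 0.091 and 0.93 on red alone. Male controls 41 and 43 had 0.46 and 0.87 for the ratio and -0.064 and 0.58 on red alone. Male UV-Titan 5, with muscle transcripts, was highest of its group at 1.04 and 0.63. The part of these transcripts in the male means was not tested. In bulk liver, fewer cells of one zone and less RNA per cell cannot be told apart.

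Within groups, some of the 10 genes went together from array to array. After the 4 group means were taken out, 45 pairs were compared over the 16 arrays on each scale, 90 relations in all, with 2-sided permutation within groups. For the ratio 7 pairs had an adjusted p under 0.05, 6 with a positive and 1 with a negative Pearson's r. Arg1 and Nags had r = 0.866 (permutation p = 0.00059, adjusted p = 0.045) and rho = 0.824 (permutation p = 0.00094, adjusted p = 0.044). Cps1 and Nags had r = 0.846 (permutation p = 0.001, adjusted p = 0.045) and rho = 0.856 (permutation p = 0.00098, adjusted p = 0.044). Both relations kept r = 0.786 and 0.732 without the 2 arrays farthest from the median of the first gene, male UV-Titan 5 and 17. They were r = 0.676 and 0.682 once slide means were taken out as well. The negative pair was Cps1 with the pericentral gene Rhbg, with r = -0.698 (permutation p = 0.0031, adjusted p = 0.045), rho = -0.659 (permutation p = 0.0098, adjusted p = 0.16) and r = -0.768 without the same 2 arrays. None of these 3 relations passed on red alone. There Arg1 and Nags had r = 0.276 (permutation p = 0.13, adjusted p = 0.30), Cps1 and Nags r = 0.17 (permutation p = 0.41, adjusted p = 0.60) and Cps1 and Rhbg r = -0.215 (permutation p = 0.49, adjusted p = 0.67). The other pericentral gene, Glul, did not go with Rhbg for the ratio. It had r = 0.595 with Cps1 (permutation p = 0.044, adjusted p = 0.15) and r = -0.098 with Rhbg (permutation p = 0.74, adjusted p = 0.89). The ratios of an array are all taken against its reference channel, whose part in these relations was not tested. In that channel, with group means out, Arg1 and Nags had r = 0.172, Cps1 and Nags r = 0.565 and Cps1 and Rhbg r = 0.301. Slides held too few arrays for values within each.

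On red alone 2 pairs had an adjusted p under 0.05. Gls2 and Nags went together, with r = 0.777 (permutation p = 0.0031, adjusted p = 0.045), rho = 0.706 (permutation p = 0.0089, adjusted p = 0.16), r = 0.702 without female UV-Titan 8 and male UV-Titan 17, and r = 0.786 with slide means out. This was the single pair past the threshold on both scales. Gls2 and Rhbg, one periportal and one pericentral, went opposite ways, with r = -0.725 (permutation p = 0.0045, adjusted p = 0.045) and rho = -0.603 (permutation p = 0.027, adjusted p = 0.17). It was r = -0.606 without female UV-Titan 8 and male UV-Titan 5, and r = -0.678 with slide means out. Glul, also pericentral, had r = -0.351 with Gls2 (permutation p = 0.19, adjusted p = 0.37) and r = 0.552 with Rhbg (permutation p = 0.081, adjusted p = 0.22). Singled out after their values were seen, 4 arrays, 1 in each group, combined high Gls2 with low Rhbg. Female UV-Titan 8 had red signals of 13.79 for Gls2 and 8.95 for Rhbg, against group means of 13.29 and 9.64. Female control 35 had 13.28 and 9.07 (group means 13.03 and 9.79), male UV-Titan 5 had 13.55 and 9.22 (13.06 and 9.64), and male control 33 had 13.73 and 9.29 (13.29 and 9.71). Each of the 4 was the highest for Gls2 and the lowest for Rhbg in its group. Over the other 12 arrays, a choice also made by the values, r was only -0.163 and rho -0.105. Male control 33 carried pancreas and male UV-Titan 5 muscle transcripts, while female UV-Titan 8 and female control 35 had scores of -0.23 and -0.31 for pancreas and -0.21 and -0.38 for muscle.

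**Figure D4:**
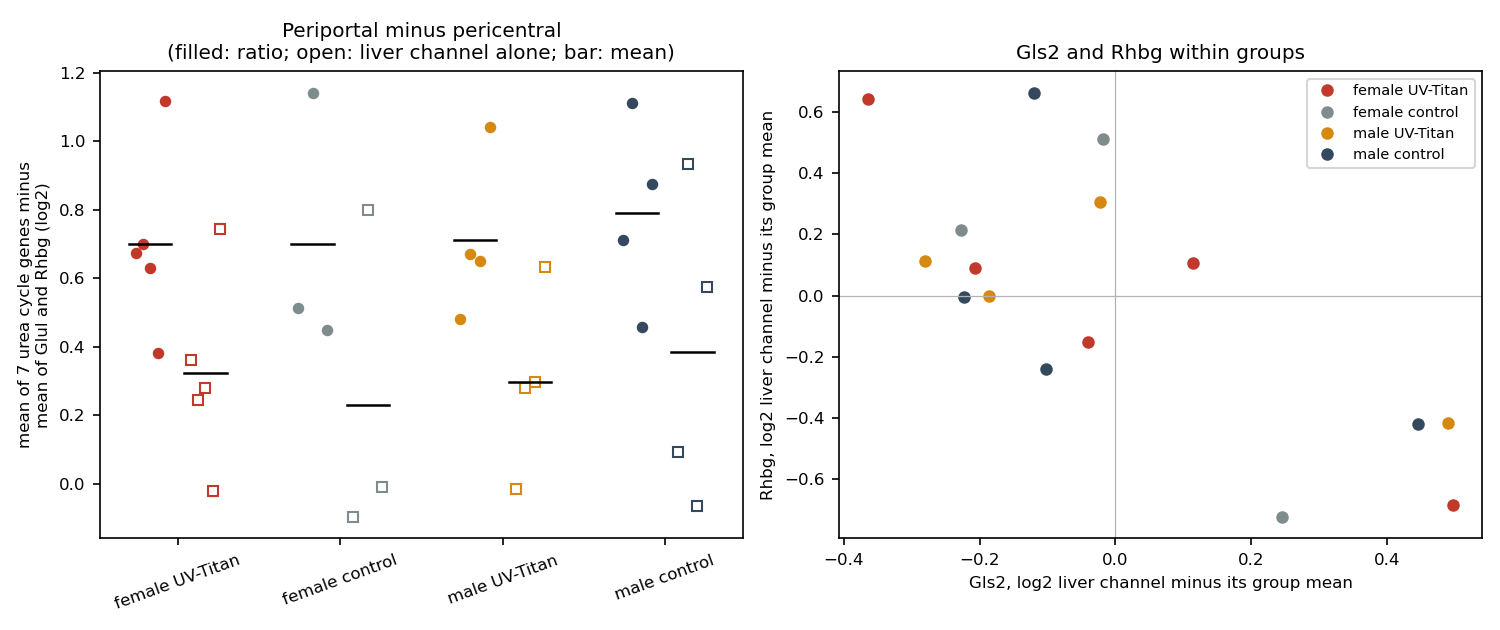
On the left, the mean of 7 urea cycle genes minus the mean of Glul and Rhbg per array in log2 units, by group, for the ratio (filled) and the liver channel (open), with bars at group means; all groups overlap. On the right, Gls2 against Rhbg in the liver channel, each minus its group mean, with 4 arrays at high Gls2 and low Rhbg, 1 from each group.

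The genes most like Cps1 across arrays, on red alone with group means out over 16 arrays and 19332 genes compared, were Cpsf4l (r = 0.910, rho = 0.659), Tango2 (r = 0.878, rho = 0.835) and Hes1 (r = 0.865, rho = 0.838). Cps1 itself lay farthest from its group mean on the pancreas arrays, male control 31 (-0.48 log2) and male control 33 (0.61 log2). The part of these arrays in the likeness was not tested. The genes most like Glul were 3230401M21Rik (r = 0.916, rho = 0.932), Cep55 (r = 0.910, rho = 0.871) and Kdm2b (r = 0.908, rho = 0.853). These are descriptions of likeness with no test.

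Other genes that feed or surround the pathway were also without a call, and each list is given by its counts. Over all genes tested, 58.5% were higher in UV-Titan females and 56.7% in UV-Titan males on the ratio scale, and 49.7% and 51.3% on red alone. Of 19 measured genes that bring nitrogen to the urea cycle, 11 were higher and 8 lower in UV-Titan females on the ratio scale (median 0.028 log2), and 5 higher and 14 lower in males (median -0.059 log2). Gpt2, the mitochondrial alanine aminotransferase, was -0.19 ± 0.08 in UV-Titan and 0.26 ± 0.11 in control males on the log2 ratio scale (SD, n = 4 each). These ranges do not overlap, as for 1.08% of all genes in this direction, and the difference was -0.45 ± 0.09 log2 (SE, limma, adjusted p = 0.951) and -0.29 ± 0.12 on red alone. Car5a, the mitochondrial carbonic anhydrase that supplies bicarbonate to Cps1, differed in males by 0.38 ± 0.15 log2 for the ratio (limma, adjusted p = 0.951). On red alone it differed by 0.44 ± 0.19 log2. In females the smallest p values for the ratio were those of Slc38a3, a glutamine transporter, and Aspg, an asparaginase. They differed by 0.39 ± 0.14 and 0.56 ± 0.27 log2 (limma, adjusted p = 0.694 and 0.747), and on red alone by 0.22 ± 0.13 and 0.56 ± 0.32 log2.

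Of 14 measured genes of ornithine and proline metabolism, 8 were higher in UV-Titan females (median 0.036 log2) and 7 in males (median 0.011 log2). In females Aldh4a1, which oxidises the product of proline breakdown to glutamate, differed by 0.22 ± 0.08 log2 and Prodh2, a proline dehydrogenase family enzyme, by 0.50 ± 0.20 log2. In males Oat, the ornithine aminotransferase that shares the pericentral rim with Glul, differed by -0.29 ± 0.10 log2 and Sat1, a polyamine acetyltransferase, by -0.22 ± 0.09 log2. None of these ratio differences passed (limma, adjusted p = 0.688, 0.696, 0.951 and 0.951). On red alone Aldh4a1 differed by 0.21 ± 0.12 and Prodh2 by 0.25 ± 0.13 log2 in females. In males Oat differed by -0.18 ± 0.14 and Sat1 by -0.0044 ± 0.23 log2 on that scale.

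Of 19 measured periportal markers outside the 10 genes, 18 had a higher ratio in UV-Titan females (median 0.40 log2) and 14 on red alone (median 0.17 log2), with 8 and 2 at an unadjusted p under 0.05, which 6.68% and 3.11% of all genes had. Markers of other cells were also mostly higher in UV-Titan females on the ratio scale, with 6 of 7 endothelial (median 0.30 log2, 4 at an unadjusted p under 0.05), 8 of 8 Kupffer cell (median 0.19 log2, 2) and 6 of 8 erythroid markers (median 0.27 log2, 4). On red alone these were 6 of 7, 4 of 8 and 4 of 8. In males 7 of 19 were higher on the ratio scale (median -0.088 log2). Tat, the tyrosine aminotransferase, had a log2 ratio of 4.89 ± 0.25 in UV-Titan and 4.45 ± 0.14 in control females, and 4.62 ± 0.10 in UV-Titan and 5.01 ± 0.19 in control males (SD). Its groups did not overlap in either sex, as for 3.17% of all genes higher in females and 1.08% lower in males, with a difference of 0.44 ± 0.13 log2 in females (limma, adjusted p = 0.613) and -0.39 ± 0.12 log2 in males (adjusted p = 0.951). The female minus male effect on Tat was 0.83 ± 0.18 log2 on the ratio scale and 1.39 ± 0.32 on red alone (SE, limma, adjusted p = 0.980 and 0.973). For the ratio Hsd17b13, a lipid droplet enzyme, differed by 0.43 ± 0.14 log2 in females. Gldc, the glycine decarboxylase, differed by -0.20 ± 0.10 log2 in males (limma, adjusted p = 0.650 and 0.951). On red alone these were 0.13 ± 0.16 and -0.15 ± 0.10 log2.

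Of 23 measured pericentral markers 18 had a higher ratio in UV-Titan females (median 0.099 log2, beside 58.5% of all genes) and 9 were higher on red alone (median -0.016 log2). For the ratio 6 of the 23 had an unadjusted p under 0.05 in females (limma), all higher, beside 6.68% of all genes. In males 11 of 23 were higher on the ratio scale (median -0.0080 log2). In females Nr1i3, the nuclear receptor CAR, differed by 0.29 ± 0.08 log2 and Rhcg, an ammonia channel on this list, by 0.18 ± 0.06 log2. Rhcg had mean log2 ratios of only 0.18 in UV-Titan and -0.0018 in control females, and its zone was not examined. In males Rnf43, a brake on Wnt signalling, differed by 0.22 ± 0.08 log2 and Lhpp, a phosphatase, by -0.27 ± 0.17 log2. In this order the 4 ratio differences had adjusted p = 0.613, 0.658, 0.951 and 0.957 (limma). On red alone they were 0.26 ± 0.12, 0.075 ± 0.089, 0.37 ± 0.12 and -0.44 ± 0.20 log2. Of 20 measured regulators 17 had a higher ratio in UV-Titan females (median 0.12 log2, beside the same 58.5%) and 8 in males (median -0.018 log2). In females 3 of the 20 had an unadjusted p under 0.05 for the ratio (limma), all higher, beside the same 6.68%. Wnt9b and Wnt2, Wnt ligands made by endothelium, differed by 0.24 ± 0.09 log2 in females and by 0.34 ± 0.13 log2 in males. Cebpa, a hepatocyte transcription factor, differed by 0.30 ± 0.13 log2 in females, and Ppargc1a, a coactivator of fasting genes, by -0.56 ± 0.24 log2 in males. These 4 ratio differences did not pass either (limma, adjusted p = 0.694, 0.951, 0.696 and 0.951). On red alone Wnt9b differed by 0.26 ± 0.09 and Cebpa by 0.017 ± 0.11 log2 in females. In males Wnt2 differed by 0.34 ± 0.16 and Ppargc1a by -0.47 ± 0.29 log2 on that scale.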

How the data were processed

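Liver RNA of 16 offspring was hybridised with a common reference on two-colour Agilent arrays, with no dye swap. Mean spot and background intensity values were deposited as scanned, and processed intensity values were made by Agilent Feature Extraction (9.5.3.1 per the labels' protocols, 9.5.1.1 per the file headers). A table of log2 ratios, with normalisation not given in the sources used here, was deposited as well. Against the log2 ratios computed here it had r = 0.983 to 0.993 per array, slope 0.990 to 1.10 and column medians of -0.045 to -0.038, so it is log2 red over green.

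Each array had 45018 spots on 5 slides scanned on 4 days. Outlier spots (144 to 238 per array) were left out. Intensities were corrected with normexp (offset 50), loess-normalised within arrays for the ratio and quantile-normalised between arrays for red alone, in limma 3.58.1 under R 4.3.3. A gene was tested if well above background in red on at least 3 arrays. One model with 4 group means gave all contrasts, two-sided, with Benjamini-Hochberg adjustment over 19361 genes and a threshold of 0.05. The fit and the permutation tests were tested on simulated data. Symbols came through accessions and a GRCm38.p6 table for 12356 genes (names only) and from the array files for 7005. The members, lists and tests were chosen with earlier results of these data known. Besides the 10 members, the text names per list the 2 genes with the smallest p in each sex, and the 3 genes most like Cps1 and Glul. Alternatives covered signals, filters, slide and scan-day blocks, array weights, probes and arrays left out. The number of arrays limits the precision.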

Additional observations from a re-analysis of the deposited data

Results flagged for a closer look

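Tat, the tyrosine aminotransferase among the periportal markers, differed in opposite directions in the sexes, with every UV-Titan array above the controls in females and below them in males on the ratio scale. The female minus male effect was 0.83 log2 and did not pass (limma, adjusted p = 0.980).

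None of the 10 members was flagged for an array far from its group, but the 3 female controls were not examined. There Ass1 on red alone was 12.75 on female control 25, against 13.815 and 14.01. Arg1 on red alone was 14.35 on male control 33, against 13.445 on male control 43, and was not flagged. Among the other named genes, 174 combinations of gene, scale and group of at least 4 arrays, members included, were examined for a single array far from the others, and chance alone gives about 1 in 20. Those found are given as log2 values with the nearest other array of the group. On the ratio scale Slc38a3 was 4.27 and Prodh2 4.91 on male control 31, against 3.84 and 4.52. Rnf43 was 1.57 and Ppargc1a 2.78 on male control 33, against 1.88 and 2.00. Lhpp was 0.25 on female UV-Titan 8, against 0.029. On red alone male UV-Titan 17 had 10.71 for Nr1i3, 12.00 for Rnf43 and 10.73 for Lhpp, against 11.08, 11.61 and 10.80. Male control 33 had 10.98 for Rnf43 and 11.52 for Ppargc1a, against 11.43 and 10.36. Cebpa was 11.32 on male control 31, against 11.67, and Gpt2 was 10.18 on male control 41, against 10.57. Male controls 31 and 33 are the arrays with pancreas transcripts, and the part of those transcripts in these values was not tested.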

How the results depend on the processing

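Over 233 fits by contrast under the alternatives, none of the 10 genes was called, and the smallest adjusted p of a member was 0.325 (limma). Of 1088 member values under the alternatives 993 kept the sign of the reported value and 95 had the opposite sign. The reported differences that turned were at most 0.21 log2 in size, and the cause was not tested. Animals could not be paired because the groups share no replicate numbers. Slides, which hold arrays of several groups, were used as a block instead. The number of genes called on the ratio scale moved in females from 0 to 1 with slide or scan day as a block and to 6 with array weights, and in males to 1 with Agilent's processed signals. Over both sexes it was 1 with slide, 10 with scan day and 6 with weights, and between the sexes 3 with probes well above background on all arrays. Leaving out 1 array gave 0 to 1 genes in females (1 without female UV-Titan 21 or male control 43) and 0 to 11 over both sexes (11 without male control 43 and 3 without female control 35).

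Opposite signs on the ratio scale were as follows. With the authors' deposited table the values were -0.00256 for Rhbg in females, and -0.050 for Cps1 and -0.013 for Ass1 in males. With Agilent's processed signals they were -0.22 for Cps1 and -0.65 for Otc in males, and 0.62 for Otc between the sexes. With array weights they were -0.094 for Rhbg in females and 0.016 for Otc between the sexes. In males a slide block gave 0.085 for Asl, 0.0073 for Nags and -0.0071 for Rhbg, a scan day block 0.063 for Asl, and the mean of probes -0.013 for Ass1. Without the pancreas arrays Ass1 was -0.019, Asl 0.12 and Rhbg -0.15 in males, and Otc 0.055 between the sexes. Without the muscle array Cps1 was -0.13, Ass1 -0.13 and Glul -0.00989 in males. On red alone, median centring in females gave Otc 0.16, Asl 0.27, Nags 0.24, Slc25a15 0.032, Glul 0.26 and Rhbg 0.094, and in males Ass1 -0.076. Further alternatives were chosen after seeing the data. Median centring with female control 25 left out gave Cps1 -0.012 and Ass1 -0.43 in females, and leaving out the pancreas arrays gave Ass1 -0.036 and Asl 0.067 in males. A slide block gave Asl 0.045 and Glul 0.0094 in females, and Asl 0.032, Arg1 0.013 and Nags 0.0046 in males. Processed red gave Asl 0.0036 in females and Ass1 -0.0012 in males.

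Leaving out 1 array in turn moved these values across 0. For the ratio in females Otc ranged from -0.013 to 0.40, Ass1 from -0.082 to 0.33, Slc25a15 from -0.12 to 0.063 and Rhbg from -0.14 to 0.35. For the ratio in males Cps1 ranged from -0.13 to 0.15, Ass1 from -0.13 to 0.093, Asl from -0.097 to 0.12, Nags from -0.20 to 0.061, Glul from -0.00989 to 0.17 and Rhbg from -0.10 to 0.16. Between the sexes Otc ranged from -0.13 to 0.080 and Glul from -0.076 to 0.017. For red alone in females Cps1 ranged from -0.048 to 0.091, Otc from -0.26 to 0.0066, Ass1 from -0.33 to 0.30, Asl from -0.0599 to 0.0851, Nags from -0.12 to 0.048, Glul from -0.21 to 0.080 and Rhbg from -0.52 to 0.0997. For red alone in males Cps1 ranged from -0.035 to 0.32, Ass1 from -0.13 to 0.14, Asl from -0.18 to 0.095, Arg1 from -0.43 to 0.12, Nags from -0.10 to 0.090, Slc25a15 from -0.14 to 0.024 and Rhbg from -0.21 to 0.15.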
